A study of Mus musculus with 18 samples.

Results

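The members were 9 transcription factors that direct the formation and identity of adipocytes, chosen by their symbols from the 20295 genes of the count table: Cebpa, Cebpb, Cebpd, Cebpg, Pparg, Ebf1, Zfp423, Tcf7l2 and Gata2. All 9 were in the table and all 9 were among the 12156 genes that passed the filter on low counts. RNA-seq had been made from BAT-LgT cells, a single line of mouse brown preadipocytes immortalised with SV40 large T antigen, genotype WT, which every group shared. The cells had been differentiated with dexamethasone, 3-isobutyl-1-methylxanthine, T3 and insulin and were treated as brown adipocytes at day 7. In 3 groups no inhibitor was given and the cells received Vehicle (DMSO), isoproterenol (ISO, 100 nM), an agonist of β-adrenergic receptors, or SR-3420, a ligand of ABHD5 that activates the lipase ATGL without the receptor, for 3 h. In the other 3 groups the same stimuli followed 1 h with inhibitors of the lipases ATGL and HSL, and these groups carry the prefix Lipase Inh. The dose of SR-3420 was 10 µM in the labels, and the study's text gives another dose. Each group held 3 samples, from 3 experiments that the study describes as independent.

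C/EBP proteins are basic leucine zipper factors that bind DNA as dimers. In textbook adipogenesis C/EBPβ and C/EBPδ appear early and are followed by C/EBPα and PPARγ, which then maintain each other and switch on the genes of the mature fat cell. C/EBPγ lacks a strong activation domain and forms dimers with other C/EBP and ATF proteins. Ebf1 and the zinc finger protein Zfp423 favour commitment to the adipocyte lineage, Tcf7l2 is a nuclear effector of Wnt signalling, and Gata2 holds preadipocytes back from differentiation. β-adrenergic signals raise cAMP in these cells, and CREB, which answers to cAMP, binds the letters TGACGTCA or their shorter core TGACG.

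The libraries held 10310447 to 21205032 counts, except Lipase Inh. + SR-3420 replicate 2 with 4263755, of which 18.3% came from Lars2 against at most 0.121% in the other 17. Summed levels of 8 brown adipocyte markers were 5779 to 9512 CPM (counts scaled to a common library size) in every library, those of 4 muscle markers 0 to 1.53 CPM, 4 endothelial markers 0 to 0.631 CPM and 4 macrophage markers 1.96 to 6.30 CPM. The brown adipocyte markers were Ucp1, Cidea, Elovl3, Dio2, Prdm16, Fabp4, Adipoq and Plin1. Of these, Cidea, Fabp4, Adipoq and Plin1 are also in the list of genes of mature adipocytes below, so the sum is not specific to brown adipocytes. Markers of preadipocytes (8 genes) summed to 180 to 319 CPM and those of proliferation (4 genes) to 432 to 820 CPM. In these bulk samples, fewer cells that express a gene and less RNA per cell cannot be told apart.

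The promoters of 5 members are shown, and the response of each to at least 1 stimulus differed with and without inhibitors (values below). The same held for Cebpa, Cebpd and Tcf7l2, whose promoters are not printed. Each promoter shown is the 250 bases before the start of transcription in the count table, read 5′ to 3′ on the gene's own strand from the mm9 genome. GENCODE annotates 1 start for Cebpb, 2 each for Cebpg and Pparg, 5 for Ebf1 and 7 for Zfp423. Of the members not printed, Tcf7l2 has 17. Only the start in the count table was used, and which starts were active in these cells was not tested. Capitals mark TGACG in Cebpb, the CCAAT box in Cebpg and Pparg, and the C/EBP site TTGCNNAA in Zfp423, on either strand.

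Cebpb promoter, chr2:167514165-167514414, plus strand: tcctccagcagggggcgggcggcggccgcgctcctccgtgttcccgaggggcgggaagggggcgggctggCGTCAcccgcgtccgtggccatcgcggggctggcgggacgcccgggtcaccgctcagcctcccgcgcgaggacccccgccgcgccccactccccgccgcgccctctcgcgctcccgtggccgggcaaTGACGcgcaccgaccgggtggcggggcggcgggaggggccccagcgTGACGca

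Cebpg promoter, chr7:35841586-35841835, minus strand: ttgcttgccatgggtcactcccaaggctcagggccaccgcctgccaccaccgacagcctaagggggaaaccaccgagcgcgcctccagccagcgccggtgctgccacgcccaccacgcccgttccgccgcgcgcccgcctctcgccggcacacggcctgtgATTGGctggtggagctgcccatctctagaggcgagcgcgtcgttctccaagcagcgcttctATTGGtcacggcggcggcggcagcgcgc

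Pparg promoter, chr6:115310989-115311238, plus strand: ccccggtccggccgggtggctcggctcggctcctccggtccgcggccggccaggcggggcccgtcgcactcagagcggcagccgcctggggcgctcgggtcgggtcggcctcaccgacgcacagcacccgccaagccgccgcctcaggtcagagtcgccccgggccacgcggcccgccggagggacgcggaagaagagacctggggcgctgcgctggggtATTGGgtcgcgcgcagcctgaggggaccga

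Ebf1 promoter, chr11:44431352-44431601, plus strand: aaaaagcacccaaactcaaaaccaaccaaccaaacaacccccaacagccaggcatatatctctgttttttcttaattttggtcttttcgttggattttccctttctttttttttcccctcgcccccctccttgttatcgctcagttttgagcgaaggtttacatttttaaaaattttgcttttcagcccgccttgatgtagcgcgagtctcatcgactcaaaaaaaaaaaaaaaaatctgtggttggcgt

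Zfp423 promoter, chr8:90483495-90483744, minus strand: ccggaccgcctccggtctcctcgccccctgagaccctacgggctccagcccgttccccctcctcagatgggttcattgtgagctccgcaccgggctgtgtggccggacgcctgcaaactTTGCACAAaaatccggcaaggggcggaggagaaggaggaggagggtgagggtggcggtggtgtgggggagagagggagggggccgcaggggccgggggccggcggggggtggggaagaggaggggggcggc

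The Cebpb window held TGACG 3 times and 81.6% G or C, whereas the Ebf1 window held none of the 5 motifs searched and 40.0% G or C. TGACG was present in 3 of the 9 member windows (Cebpb, Cebpd and Tcf7l2) and in 21.2% of all 20295 windows of this length. The full element TGACGTCA was in none of the 9 and in 2.14% of all windows, and the C/EBP-ATF composite TGATGCAA in none and in 0.631%. CCAAT was in 3 of the 9 (Cebpg, Pparg and Gata2) and in 35.5% of all windows, TTGCNNAA in 1 of the 9 and in 8.69%. All motifs were searched on both strands, and every match to TGACGTCA also counts as a match to TGACG.

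Cebpa and Cebpg are neighbours on chromosome 7 (mm9; Cebpa at chr7:35904312-35906951 on the plus strand, Cebpg at chr7:35831441-35841585 on the minus strand). Cebpb, at chr2:167514415-167515932 on the plus strand, and Cebpa are listed over their whole span as counted length, 1518 and 2640 bases. Cebpd lies at chr16:15887379-15889638 on the plus strand and overlaps Spidr on the minus strand by 321 bases, which equals the part of its span left out of its counted length. The other members span longer stretches: Ebf1 389997 bases from chr11:44431602-44821598 (plus strand), Zfp423 297786 bases from chr8:90185709-90483494 (minus strand), Tcf7l2 191846 bases from chr19:55816300-56008145 (plus strand) and Pparg 129181 bases from chr6:115311239-115440419 (plus strand). Gata2 is at chr6:88148658-88157026 on the plus strand. In the GENCODE annotation, an exon of Tmem189 on the other strand overlaps Cebpb and an exon of Gm12158 overlaps Ebf1, and whether reads were counted by strand is not given in the sources used here.

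In unstimulated cells Cebpa was the highest of the 9 and Gata2 the lowest when levels were set per kb of counted length. In Vehicle, Cebpa stood at 556 ± 88.1 CPM per kb (SD, n = 3) and Pparg at 289 ± 19.1. Below them came Cebpb at 79.3 ± 8.55 CPM per kb, Cebpg at 59.6 ± 0.779 and Ebf1 at 37.9 ± 1.38, with no overlap between neighbours in this order. Zfp423 (16.6 ± 1.99 CPM per kb), Cebpd (14.8 ± 1.84) and Tcf7l2 (12.9 ± 0.753) formed the next step, in which Zfp423 overlapped Cebpd and Cebpd overlapped Tcf7l2. Gata2 was at 0.773 ± 0.169 CPM per kb, from 12 to 55 counts a library over all 18 libraries. The plot of levels per kb shows that the order changed in particular groups. Cebpb passed above Pparg in SR-3420, 220 against 162 CPM per kb, without overlap. In Lipase Inh. + ISO, Zfp423 dropped to 3.00 CPM per kb, below Tcf7l2 at 9.06.

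**Figure D1:**
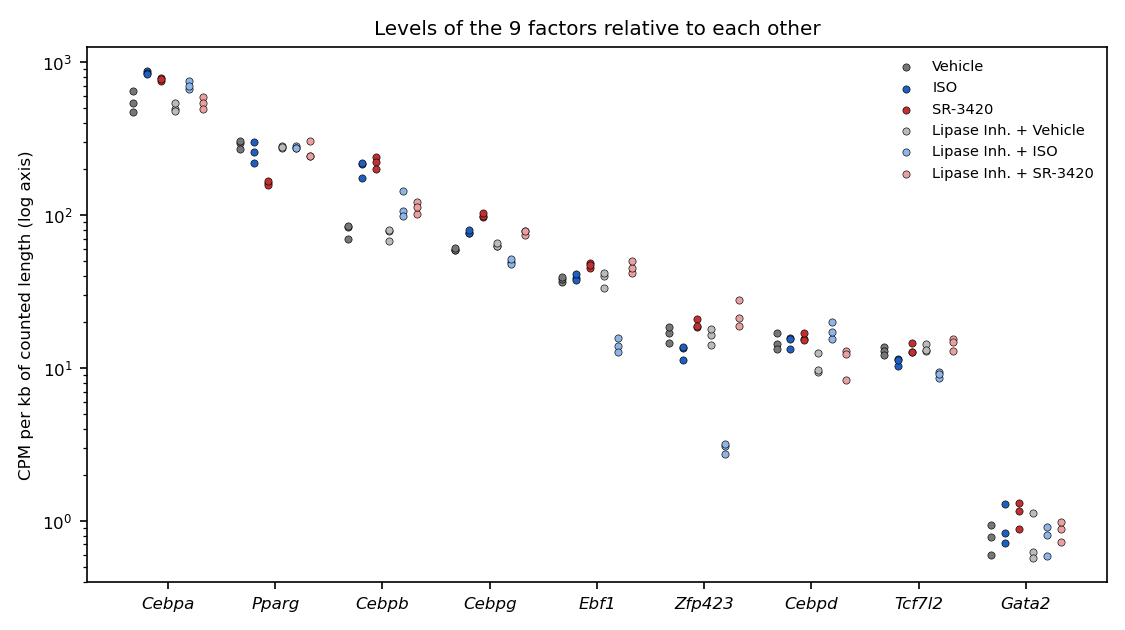
Levels of the 9 transcription factors in CPM per kb of counted length on a log axis, 1 point for each of the 3 samples of each group, in the order of their Vehicle means. Cebpa is highest in all 6 groups and Gata2 lowest, and the Zfp423 and Ebf1 points of Lipase Inh. + ISO lie below those of the other groups.

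ISO against Vehicle asks how β-adrenergic stimulation with lipolysis intact changed these factors. Cebpb, Cebpa and Cebpg rose, Zfp423 and Tcf7l2 fell by less than 0.4 on the log2 scale, and Cebpd, Pparg, Ebf1 and Gata2 did not pass the test. The test was edgeR's quasi-likelihood test with Benjamini-Hochberg adjustment over all 12156 genes, with an adjusted p of at most 0.05 as its threshold. A share of 5 of 9 members passed, against 51.8% of all genes tested, so the share is near the background. Also 5 of 9 did not overlap between the groups, against 55.6% of all genes.

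Cebpb measured 126.6, 129 and 105 CPM in the 3 Vehicle samples and 325, 264.5 and 331 CPM in the 3 ISO samples. Every ISO sample lay above every Vehicle sample, and the log2 fold change was 1.35 ± 0.12 (SE; adjusted p = 7.00e-09), 2.55-fold. It was the only member whose change exceeded 1 on the log2 scale, which 9.11% of all genes did, and it ranked 333 from the top of 12156.

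Cebpa measured 1715, 1435 and 1254 CPM in Vehicle and 2295, 2230.1 and 2192 CPM in ISO. The groups did not overlap and the log2 fold change was 0.61 ± 0.09 (adjusted p = 8.00e-06). Cebpg, the C/EBP member without a strong activation domain, moved from 279, 277 and 284 CPM to 359.7, 359.7 and 373 CPM, also without overlap. Its log2 fold change was 0.38 ± 0.05 (adjusted p = 4.46e-06), which became 0.07 (adjusted p = 0.462) when samples were scaled by total counts alone, a scaling that moved the median gene by -0.31.

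Cebpd measured 27.7, 32.7 and 25.8 CPM in Vehicle and 30.2, 25.6 and 29.7 CPM in ISO, and these ranges overlapped. The interval of its log2 difference ran from -0.29 to 0.26 (95%). Pparg, the nuclear receptor at the centre of adipocyte differentiation, measured 546, 498 and 567 CPM against 478, 408 and 558 CPM. The difference of -0.16 ± 0.09 on the log2 scale did not pass (adjusted p = 0.159, 95% interval -0.35 to 0.03), but passed at -0.28 (adjusted p = 0.0141) without ISO replicate 3 and at -0.46 (adjusted p = 0.000979) under total counts alone. Ebf1 differed by 0.04 ± 0.09 (adjusted p = 0.704), and by -0.26 (adjusted p = 0.0281) under total counts alone.

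Zfp423 measured 82.3, 91.0 and 71.5 CPM in Vehicle and 66.5, 55.1 and 67.3 CPM in ISO. All 3 ISO samples were below the lowest Vehicle sample, and Zfp423 fell by 0.38 ± 0.12 on the log2 scale (adjusted p = 0.0129). Tcf7l2 moved from 55.9, 52.8 and 49.8 CPM to 47.0, 42.3 and 46.4 CPM and fell by 0.23 ± 0.08 (adjusted p = 0.0272). Both calls depended on single libraries. Zfp423 had an adjusted p of 0.0791 without Vehicle replicate 2 and of 0.0766 without ISO replicate 2. Tcf7l2 had 0.111 without Vehicle replicate 1, 0.0558 without Vehicle replicate 2 and 0.114 without ISO replicate 2.

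**Figure D2:**
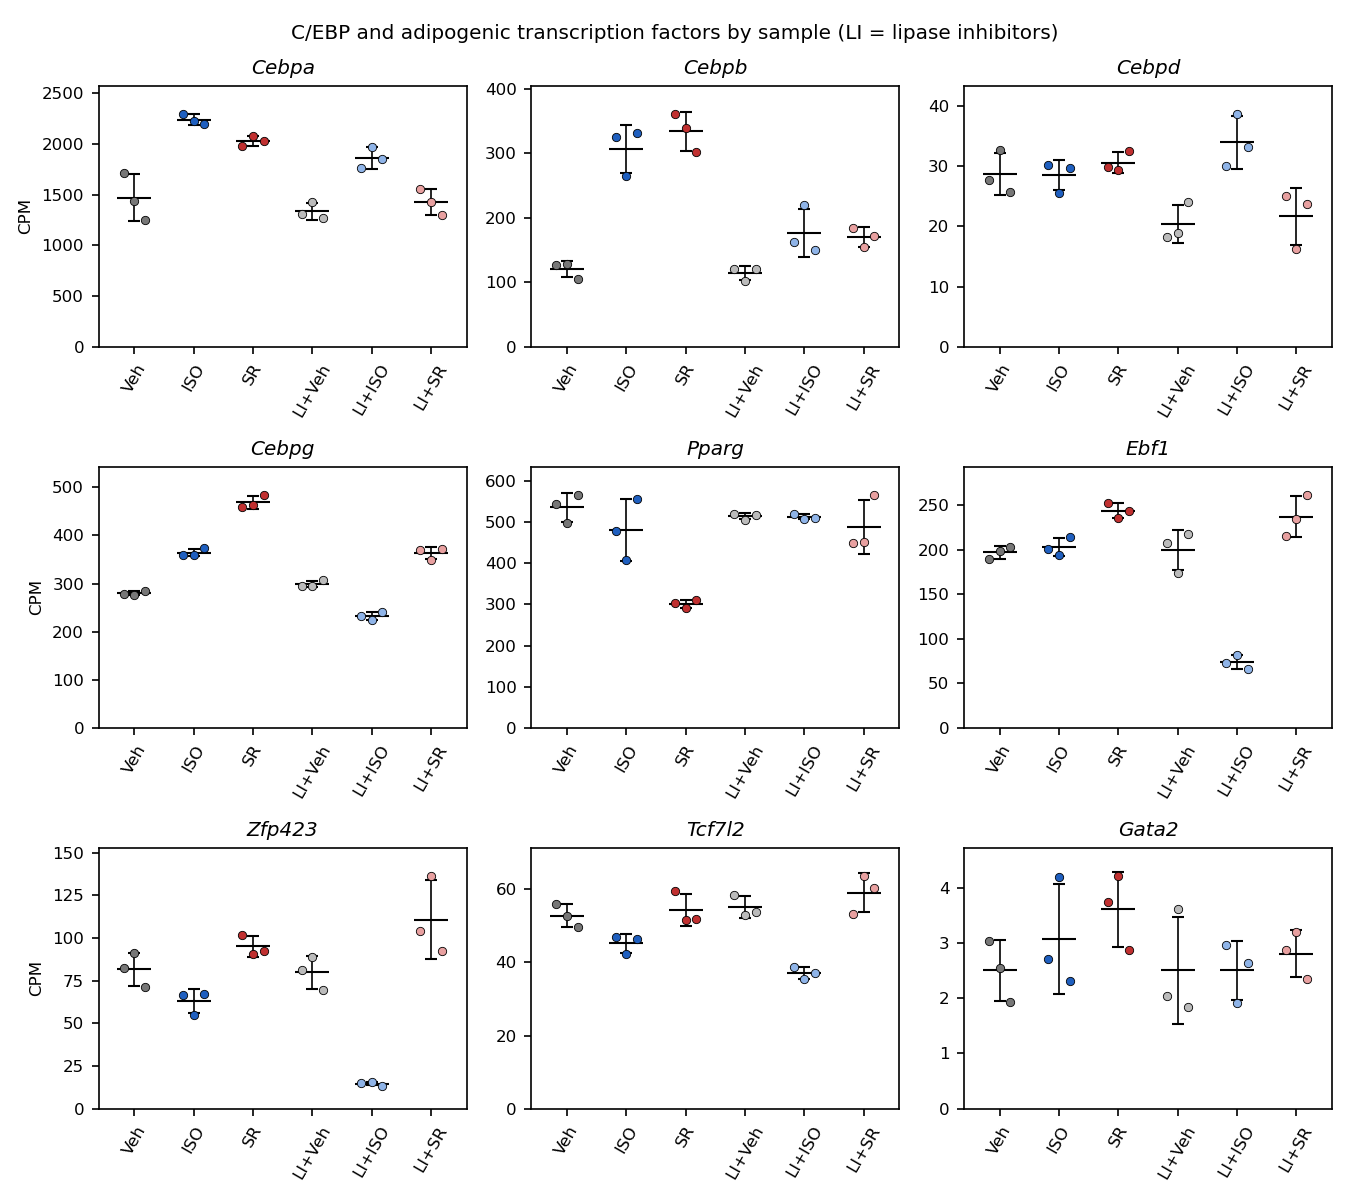
CPM of each of the 9 transcription factors in each sample, with linear axes from 0; points are samples, horizontal marks the group means and bars the SD of 3 samples (Veh, Vehicle; SR, SR-3420; LI, lipase inhibitors). Cebpb rises in every stimulated group, Pparg is lower in SR-3420 than in Vehicle, and Ebf1 and Zfp423 are lowest in Lipase Inh. + ISO.

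SR-3420 against Vehicle asks what lipolysis does when it is started at ABHD5, past the receptor. Cebpb, Cebpg, Cebpa and Ebf1 rose and Pparg fell. Again 5 of 9 members passed, against 51.4% of all genes, and 5 of 9 did not overlap, against 56.2%. Cebpd, Zfp423, Tcf7l2 and Gata2 did not pass, with log2 differences of 0.09, 0.22, 0.04 and 0.49.

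Pparg measured 303, 292 and 310 CPM in the 3 SR-3420 samples, each below the lowest of the Vehicle samples given above, 498 CPM. Pparg fell by 0.83 ± 0.09 on the log2 scale (adjusted p = 1.98e-07), to 0.562 of the Vehicle level, and ranked 555 from the bottom of 12156 genes. Under every alternative tried, the samples left out in turn included, this call kept its side of the threshold.

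Cebpb measured 361, 339.5 and 302 CPM in SR-3420. The rise of 1.47 ± 0.12 on the log2 scale (adjusted p = 2.85e-09) was the only one over 1 among the members, a size that 6.33% of all genes reached in either direction. Cebpg measured 459, 464 and 484 CPM, above all Vehicle samples, and rose by 0.74 ± 0.05 (adjusted p = 3.35e-10). Cebpa measured 1982, 2082 and 2030 CPM and rose by 0.47 ± 0.09 (adjusted p = 0.000196).

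Ebf1, a factor of the early B-cell factor family that also acts in the adipocyte lineage, measured 189, 198 and 203 CPM in Vehicle and 252, 235 and 244 CPM in SR-3420. The groups did not overlap, and Ebf1 rose by 0.31 ± 0.09 on the log2 scale (adjusted p = 0.00501). Under total counts alone, which moved the median gene by -0.16 here, the difference was 0.15 (adjusted p = 0.229).

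Set directly against each other without inhibitors, ISO and SR-3420 differed in 5 of 9 members, against 29.7% of all genes. Pparg was higher with ISO by 0.67 ± 0.09 on the log2 scale (adjusted p = 1.26e-05). Cebpg was lower with ISO, by -0.37 ± 0.05 (adjusted p = 2.80e-05), and so was Zfp423, by -0.60 ± 0.12 (adjusted p = 0.000822). Tcf7l2 (-0.27 ± 0.08, adjusted p = 0.0189) and Ebf1 (-0.26 ± 0.09, adjusted p = 0.0241) were lower with ISO too, but Tcf7l2 lost the call without SR-3420 replicate 1 (adjusted p = 0.114) or ISO replicate 2 (adjusted p = 0.0899). Ebf1 lost it without ISO replicate 1 (adjusted p = 0.0698), ISO replicate 2 (0.0862), SR-3420 replicate 1 (0.0840) or SR-3420 replicate 3 (0.0604). Without SR-3420 replicate 1 or without ISO replicate 2, 3 of 9 members passed. For Cebpa and Cebpb the 95% intervals of the log2 difference were -0.05 to 0.33 and -0.37 to 0.13. Cebpa lost its sign under total counts alone, at -0.01.

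The lipase inhibitors alone asked whether blocking basal lipolysis changed the factors. None of the 9 members passed in edgeR, against 0.913% of all genes tested, and 2 of 9 did not overlap between the groups, against 15.4%. Cebpd alone had an unadjusted p under 0.05 in edgeR, and DESeq2 called 1 member. Cebpd measured 18.3, 18.9 and 24.1 CPM in Lipase Inh. + Vehicle against 27.7, 32.7 and 25.8 CPM in Vehicle, without overlap. The log2 difference was -0.49 ± 0.13 (adjusted p = 0.111), and it passed in DESeq2 (adjusted p = 0.0298), with no filter on low counts (0.0282) and without Lipase Inh. + Vehicle replicate 3 (0.0431).

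ISO with the inhibitors present, against Lipase Inh. + Vehicle, asks which effects of ISO remain when the lipases are blocked. Zfp423, Ebf1, Tcf7l2 and Cebpg fell, and Cebpd, Cebpb and Cebpa rose, while Pparg and Gata2 did not pass. A share of 7 of 9 passed, against 57.7% of all genes, and 7 of 9 did not overlap, against 65.3%. Of the members, 2 changed by more than 1 on the log2 scale, Zfp423 and Ebf1, both lower, as did 7.63% of all genes in that direction.

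Zfp423 measured 81.0, 88.7 and 69.7 CPM in Lipase Inh. + Vehicle and 15.2, 15.6 and 13.4 CPM in Lipase Inh. + ISO. The counts behind the latter were 169, 170 and 264, and the groups lay far apart compared with their spread. Zfp423 fell by 2.45 ± 0.14 on the log2 scale (adjusted p = 1.83e-12), to 0.183 of the level with inhibitors alone. Only 47 of the 12156 genes tested fell further.

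Ebf1 measured 207, 174 and 218 CPM in Lipase Inh. + Vehicle and 72.7, 81.9 and 65.9 CPM in Lipase Inh. + ISO, again without overlap. Ebf1 fell by 1.45 ± 0.09 on the log2 scale (adjusted p = 1.02e-11), to 0.367 of the level with inhibitors alone. Tcf7l2, the Wnt effector, moved from 58.5, 53.1 and 53.9 CPM to 38.8, 35.4 and 37.2 CPM. It fell by 0.57 ± 0.08 (adjusted p = 4.56e-06).

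Among the C/EBP genes, Cebpg went from 294, 295.5 and 307 CPM to 233, 224 and 241 CPM and fell by 0.36 ± 0.05 on the log2 scale (adjusted p = 6.62e-06). With ISO alone it had risen, a call that was lost under total counts alone. Cebpd measured 30.1, 38.7 and 33.2 CPM in Lipase Inh. + ISO, all above the 24.1 CPM of the highest Lipase Inh. + Vehicle sample, and rose by 0.73 ± 0.13 (adjusted p = 7.72e-05). The Vehicle samples without inhibitors had held 25.8 to 32.7 CPM of Cebpd, a range that overlapped these values. Cebpb measured 120.1, 102 and 121 CPM in Lipase Inh. + Vehicle against 162, 219 and 149 CPM in Lipase Inh. + ISO and rose by 0.63 ± 0.12 (adjusted p = 0.000161). Cebpa went from 1305, 1425 and 1271 CPM to 1760, 1971 and 1851 CPM and rose by 0.48 ± 0.09 (adjusted p = 0.000109).

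Pparg held 521, 507 and 519 CPM in Lipase Inh. + Vehicle and 521, 508 and 512 CPM in Lipase Inh. + ISO. The 95% interval of its log2 difference was -0.20 to 0.19. Gata2 stood at 2.51 ± 0.975 CPM and 2.51 ± 0.536 CPM in these groups, and the 95% interval of its log2 difference was -0.55 to 0.64.

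The preadipocyte markers summed to 231 to 279 CPM in Lipase Inh. + Vehicle and to 180 to 238 CPM in Lipase Inh. + ISO, the proliferation markers to 524 to 756 CPM and 432 to 614 CPM, and the brown adipocyte markers to 5779 to 6550 CPM and 7643 to 7981 CPM. Of the 7 preadipocyte markers tested, 1 passed as higher and 2 as lower, and of the 4 proliferation markers 1 passed as lower. Of the 7 brown adipocyte markers tested, 5 passed as higher and 0 as lower. Over all genes tested, 29.4% passed as higher and 28.3% as lower in this comparison. The part of these marker levels in the lower Ebf1, Zfp423 and Tcf7l2 was not tested.

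SR-3420 with the inhibitors present, against Lipase Inh. + Vehicle, asks whether its effects need the lipases. Cebpb, Cebpg and Zfp423 rose, and the other 6 members did not pass. Among these 6, Ebf1 had risen by 0.31 on the log2 scale with SR-3420 alone and differed by 0.25 ± 0.09 here (adjusted p = 0.125). A share of 3 of 9 passed, against 4.34% of all genes, and 3 of 9 did not overlap, against 20.0%. Under total counts alone, which moved the median gene by -0.10 and so lowered each value by a like amount, none of the 3 passed. The TMM factor of Lipase Inh. + SR-3420 replicate 2, the library with 18.3% Lars2, was 0.881, against 1.08 and 1.06 in replicates 1 and 3. The part of that library in the loss was not tested.

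Cebpb measured 184.5, 154 and 172 CPM in Lipase Inh. + SR-3420, above all 3 samples with inhibitors alone. It rose by 0.58 ± 0.12 on the log2 scale (adjusted p = 0.00711), and by 0.48 (adjusted p = 0.0614) under total counts alone. Cebpg measured 369, 350 and 372 CPM and rose by 0.28 ± 0.05 (adjusted p = 0.00270), and by 0.17 (adjusted p = 0.283) under total counts alone.

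Zfp423 measured 104, 136 and 92.2 CPM in Lipase Inh. + SR-3420, above the 88.7 CPM of the highest sample with inhibitors alone. The rise of 0.45 ± 0.12 on the log2 scale (adjusted p = 0.0341) did not pass when only the groups compared were fitted (0.44, adjusted p = 0.0954) or under total counts alone (0.33, adjusted p = 0.108). It was also lost without any 1 of 4 libraries, among them the shallow replicate 2, which held the highest of the 3 values. Without that library the difference was 0.30 (adjusted p = 0.196), and the adjusted p was 0.161 without Lipase Inh. + Vehicle replicate 3, 0.0978 without Lipase Inh. + Vehicle replicate 1 and 0.0541 without Lipase Inh. + SR-3420 replicate 1. Pparg, which had fallen with SR-3420 alone, measured 450, 452 and 566 CPM, with a 95% interval of the log2 difference of -0.27 to 0.12.

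**Figure D3:**
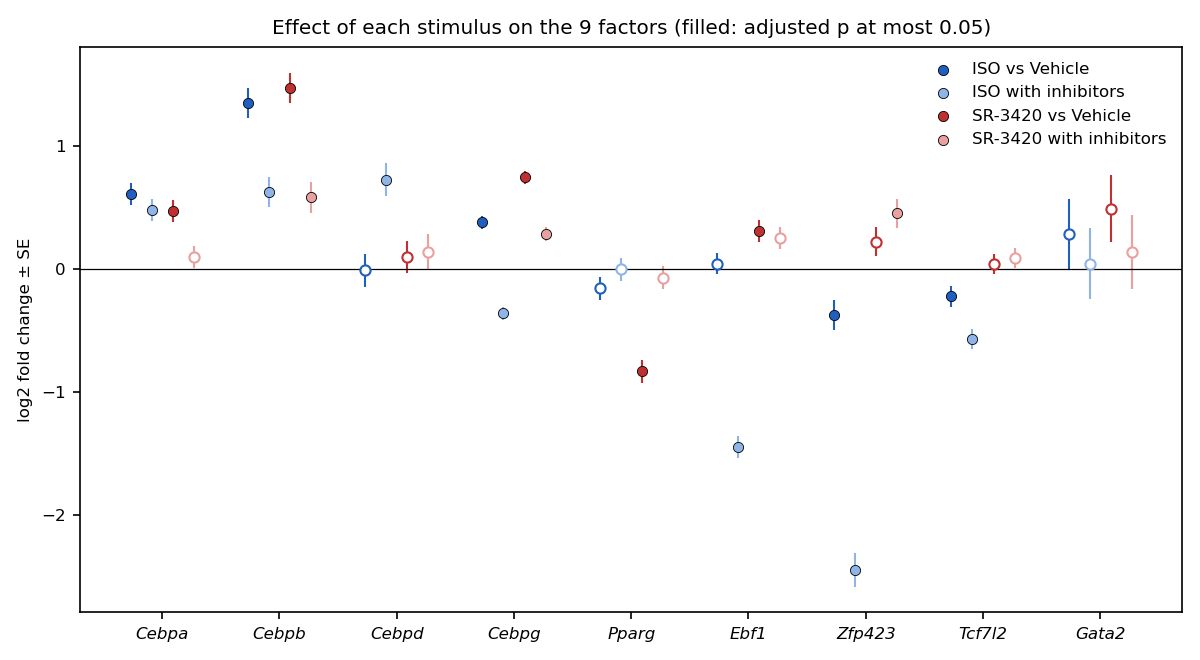
Log2 fold change with its standard error for each transcription factor under ISO and SR-3420, without inhibitors (dark) and with lipase inhibitors (light), each against its own vehicle; filled points have an adjusted p of at most 0.05. Zfp423 (-2.45) and Ebf1 (-1.45) stand lowest, under ISO with inhibitors, and Cebpb highest, at 1.35 and 1.47 without inhibitors.

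Whether the inhibitors altered each response was tested as an interaction, the response with inhibitors minus the response without. For ISO, 6 of 9 members passed, against 31.4% of all genes. The responses of Zfp423 (-2.07 ± 0.18, adjusted p = 1.59e-08) and Ebf1 (-1.49 ± 0.12, adjusted p = 6.59e-09) were more negative with inhibitors, and no member's interaction was larger in size. Cebpg (-0.74 ± 0.08, adjusted p = 1.55e-07) turned from a rise to a fall, though under total counts alone the rise was 0.07 (adjusted p = 0.462). Cebpb (-0.72 ± 0.17, adjusted p = 0.00261) rose less with inhibitors than without. Cebpd went the other way (0.74 ± 0.19, adjusted p = 0.00453). The interaction of Tcf7l2 (-0.34 ± 0.12, adjusted p = 0.0286) did not pass in 6 of 12 fits with 1 library missing: without ISO replicate 1 or 3, Lipase Inh. + ISO replicate 2 or 3, Lipase Inh. + Vehicle replicate 1 or Vehicle replicate 3 (adjusted p from 0.0541 to 0.0867). It did not pass with no filter on low counts either (-0.33, adjusted p = 0.0575), nor under total counts alone (-0.26, adjusted p = 0.131). Cebpa, with -0.13 and a 95% interval of -0.39 to 0.14, did not pass, and neither did Pparg, with 0.15 and -0.12 to 0.42.

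For SR-3420, 4 of 9 members passed the interaction, against 27.3% of all genes. Pparg fell without inhibitors, and the response was less negative with them by 0.76 ± 0.13 on the log2 scale (adjusted p = 0.000175). The rises of Cebpb (-0.89 ± 0.17, adjusted p = 0.000578) and Cebpg (-0.46 ± 0.08, adjusted p = 0.000117) were smaller with inhibitors. Cebpa had an interaction of -0.37 ± 0.13 (adjusted p = 0.0348), which passed in 4 of 12 fits with 1 library missing and did not pass in the fit of the 4 groups alone (adjusted p = 0.0658) or under total counts alone (-0.33, adjusted p = 0.126). In the other 8 fits, without Vehicle replicate 2 or 3, SR-3420 replicate 2 or 3, Lipase Inh. + Vehicle replicate 1 or 2, or Lipase Inh. + SR-3420 replicate 2 or 3, the adjusted p was 0.0521 to 0.101.

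With the lipases blocked, ISO and SR-3420 differed in 6 of 9 members, against 56.9% of all genes. Zfp423 was lower with ISO by -2.90 ± 0.14 on the log2 scale (adjusted p = 1.72e-13), and only 25 of 12156 genes differed further in that direction. Ebf1 (-1.70 ± 0.09, adjusted p = 9.81e-13), Tcf7l2 (-0.66 ± 0.09, adjusted p = 9.79e-07) and Cebpg (-0.65 ± 0.05, adjusted p = 1.64e-09) were lower with ISO too. Cebpd (0.59 ± 0.14, adjusted p = 0.00100) and Cebpa (0.38 ± 0.09, adjusted p = 0.00108) were higher. For Cebpb the 95% interval was -0.21 to 0.30.

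The balance among the C/EBP genes was followed as ratios of counts per kb within each sample. Cebpb amounted to 0.144 ± 0.0141 of Cebpa in Vehicle, 0.238 ± 0.0291 in ISO and 0.286 ± 0.0293 in SR-3420 (SD, n = 3). The log2 ratio was higher by 0.73 under ISO and by 0.99 under SR-3420, in each case without overlap (two-sided exact permutation p = 0.1, the smallest that 3 against 3 samples allow). With inhibitors the ratio was 0.150 ± 0.0223 in Lipase Inh. + Vehicle, 0.165 ± 0.0268 in Lipase Inh. + ISO and 0.208 ± 0.0211 in Lipase Inh. + SR-3420. The Lipase Inh. + ISO samples overlapped those of inhibitors alone (log2 difference 0.13, two-sided exact permutation p = 0.5), and the Lipase Inh. + SR-3420 samples did not (0.48, exact p = 0.1).

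Cebpg, set against Cebpb, amounted to 0.758 ± 0.0972 in Vehicle, 0.387 ± 0.0456 in ISO and 0.457 ± 0.0558 in SR-3420. It was 0.849 ± 0.0766 in Lipase Inh. + Vehicle, 0.438 ± 0.0987 in Lipase Inh. + ISO and 0.692 ± 0.0432 in Lipase Inh. + SR-3420. None of the 4 stimulated groups overlapped its own vehicle, with log2 differences of -0.97, -0.73, -0.98 and -0.29 (each two-sided exact permutation p = 0.1). The log2 ratio of Cebpd to Cebpa differed by -0.63 under ISO and by -0.38 under SR-3420, without overlap (exact p = 0.1), and by 0.26 (exact p = 0.3) and -0.02 (exact p = 0.9) with inhibitors. These 12 tests form 1 family, with Benjamini-Hochberg values of at least 0.133, none of which can pass a threshold of 0.05 at this sample size.

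**Figure D4:**
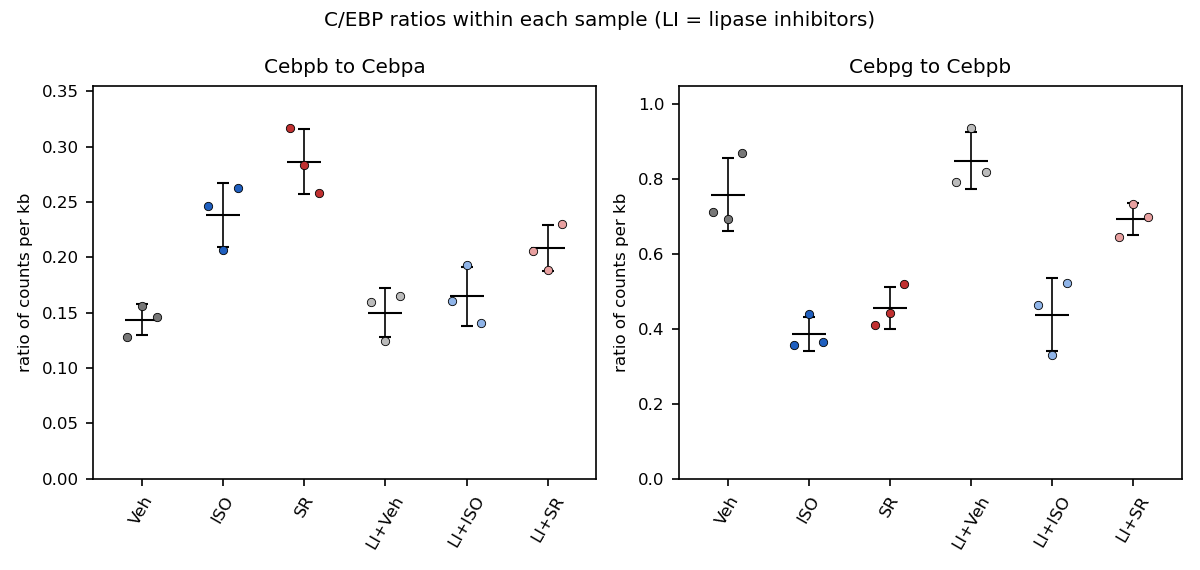
Ratio of counts per kb of Cebpb to Cebpa (left) and of Cebpg to Cebpb (right) in each sample, on linear axes from 0; points are samples, horizontal marks the means and bars the SD of 3 samples (Veh, Vehicle; SR, SR-3420; LI, lipase inhibitors). The Cebpb to Cebpa ratio is 0.144 in Vehicle and 0.286 in SR-3420, and 0.150 and 0.165 in Lipase Inh. + Vehicle and Lipase Inh. + ISO.

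The 3 members that fell by the largest amounts with Lipase Inh. + ISO were also the 3 with the longest spans, and the whole table was therefore described by gene span, a description added after the members' values were seen. Of the 1424 genes tested that span 100 kb or more, 43.7% passed as lower and 21.1% as higher in Lipase Inh. + ISO against Lipase Inh. + Vehicle. Among the 3249 genes under 10 kb, 21.0% passed as lower and 29.5% as higher. A change as low as that of Ebf1 or lower was reached by 5.90% of the genes of 100 kb or more and by 1.69% of those under 10 kb. One as low as that of Zfp423 or lower was reached by 6 of the 1424 longest genes, Zfp423 among them. The same was reached by 6 of 1685 genes of 50 to 100 kb, 27 of 5798 of 10 to 50 kb and 9 of 3249 under 10 kb. With ISO alone the shares ran the other way, 19.5% of the longest and 28.3% of the shortest genes passing as lower. Pparg, also over 100 kb, had a log2 difference of -0.01 with Lipase Inh. + ISO. The part of gene span in the lower Zfp423, Ebf1 and Tcf7l2 was not tested.

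**Figure D5:**
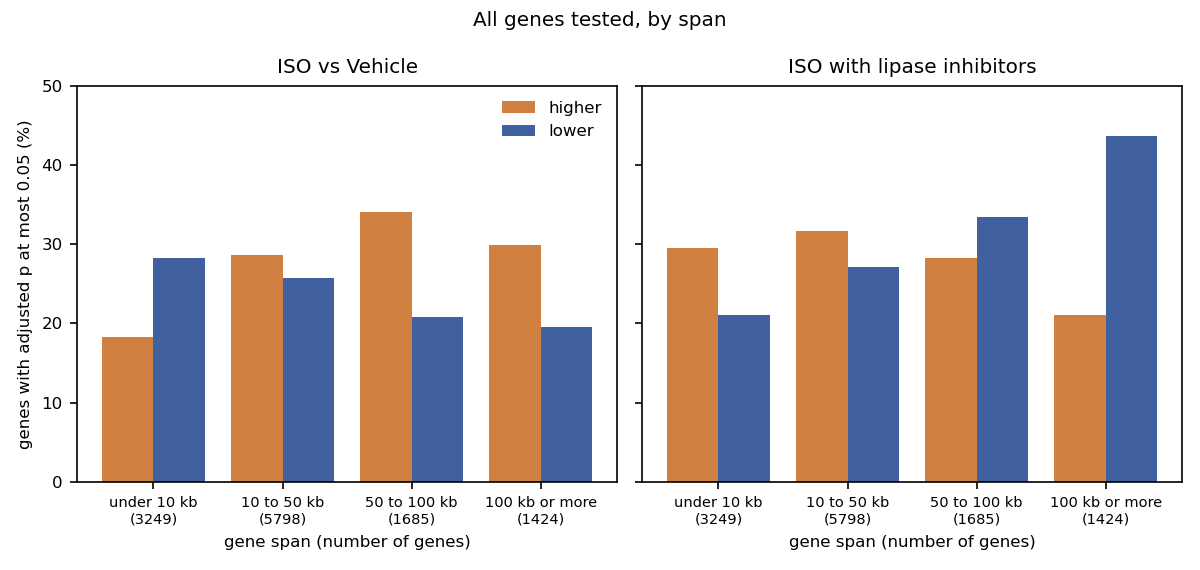
Share of all genes tested that passed as higher or lower (adjusted p at most 0.05), by the length of the gene from start to end, for ISO against Vehicle (left) and for ISO with inhibitors against inhibitors alone (right). In the right panel the share that passed as lower grows from 21.0% under 10 kb to 43.7% at 100 kb or more, and in the left panel it declines from 28.3% to 19.5%.

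For each member, the genes with the most similar pattern were taken as the 3 with the highest Pearson correlation over the 6 group means of log2 CPM, among 1914 genes (1913 for a member that is itself a candidate) whose group means ranged by at least 1. With 6 means the correlations are descriptions only, and the same libraries stand behind both genes. Nearest to Zfp423 were Ctif (r = 1.000 after rounding), Fermt2 (0.999) and Ankef1 (0.998). Fermt2, an adaptor of integrin adhesions, stood at 132 CPM in Lipase Inh. + Vehicle, 48.7 CPM in Lipase Inh. + ISO and 162 CPM in Lipase Inh. + SR-3420. Nearest to Ebf1 were Plce1, Lcorl and Spry1 (0.996 to 0.997). Spry1, an inhibitor of receptor tyrosine kinase signalling, went from 14.6 CPM in Lipase Inh. + Vehicle to 6.60 CPM in Lipase Inh. + ISO. Nearest to Pparg were Hoxa5 (0.966), Apoe (0.952) and Gchfr (0.940). Hoxa5, a homeobox factor, measured 45.5 CPM in Vehicle, 33.5 CPM in ISO and 17.2 CPM in SR-3420, and Apoe, an apolipoprotein, 422, 296 and 190 CPM. Nearest to Cebpb were Rusc2 (0.995), Cdc27 and Armcx4, to Cebpa Ptgs1 (0.997), Rabggtb and Tmem11, and to Cebpg Tmcc3 (0.996), Dbf4 and Zxdc. For Cebpd (P4ha1, 0.916), Tcf7l2 (Itga1, 0.998) and Gata2 (Tnfaip2, 0.989) only the nearest is given. Gata2 held 12 to 55 counts a library, and each of its groups overlapped the next in the order of their means. The nearest genes depended on the range asked of the candidates: among 6120 genes (6121 for Gata2) whose group means ranged by at least 0.5, those nearest to Pparg were Id1 (0.996), Sqrdl (0.982) and Tgif2 (0.979). The nearest gene also changed for Cebpa, Cebpb, Cebpd, Ebf1 and Gata2, and was the same for Cebpg, Zfp423 and Tcf7l2.

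Lists of related genes were described beside the members. Of all genes tested, 26.8% rose and 25.0% fell under ISO, 26.0% and 25.4% under SR-3420, 29.4% and 28.3% with Lipase Inh. + ISO, and 2.99% and 1.36% with Lipase Inh. + SR-3420, and the counts below stand against these shares. Over the 5 lists together, with 6, 27, 24, 12 and 21 genes tested, 35 rose and 20 fell with ISO (21 and 36 under total counts alone), 41 and 19 with SR-3420 (30 and 24), 24 and 35 with Lipase Inh. + ISO (15 and 47), and 17 and 2 with Lipase Inh. + SR-3420 (8 and 3). The shares above do not apply to the counts in brackets. Under total counts alone 7500, 6316, 7092 and 344 of all genes passed in these comparisons in either direction, against 6300, 6254, 7014 and 528 in the main fit. Partners and inhibitors of C/EBP proteins come first. Of 6 tested from a list of 7, 3 rose and none fell with ISO, and 3 rose and 1 fell with SR-3420. Trib1, a pseudokinase that directs C/EBPα to degradation, rose by 1.98 ± 0.10 on the log2 scale with ISO and by 1.74 ± 0.10 with Lipase Inh. + ISO, and differed by -0.02 ± 0.10 with SR-3420. Trib3, a tribble that responds to ATF4 and CHOP, fell by 2.36 ± 0.10 with Lipase Inh. + ISO and differed by 0.01 ± 0.09 with ISO (interaction adjusted p = 1.98e-11). Ddit3, which encodes CHOP, a C/EBP partner that blocks binding at usual sites, had log2 fold changes of 0.67 ± 0.07 under ISO and of 1.87 ± 0.07 under SR-3420, and fell by 1.47 ± 0.08 with Lipase Inh. + ISO. With Lipase Inh. + ISO, 1 of the 6 rose and 3 fell, and with Lipase Inh. + SR-3420 3 rose and 1 fell. Atf4, the upstream regulator of Ddit3, had log2 fold changes of 1.30 with ISO, 1.62 with SR-3420, 0.03 with Lipase Inh. + ISO and 0.40 with Lipase Inh. + SR-3420.

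Other factors that favour adipogenesis moved in both directions. Of 27 tested from a list of 28, 11 rose and 8 fell with ISO, 12 rose and 7 fell with SR-3420, 5 rose and 16 fell with Lipase Inh. + ISO, and 3 rose and none fell with Lipase Inh. + SR-3420. The median log2 fold change of the list was 0.14, 0.35, -0.38 and 0.11 in these comparisons, beside -0.02, -0.02, -0.01 and 0.00 for all genes tested. Rxra, which encodes the partner of PPARγ on DNA, fell by 1.17 ± 0.07 under ISO, by 0.91 ± 0.07 under SR-3420 and by 1.48 ± 0.07 under Lipase Inh. + ISO. Ppara, the PPAR that drives fatty acid oxidation, rose by 1.30 ± 0.15 with ISO, 1.50 ± 0.15 with SR-3420 and 0.96 ± 0.15 with Lipase Inh. + SR-3420, and fell by 0.63 ± 0.15 with Lipase Inh. + ISO. Klf4, an early activator of Cebpb in adipogenesis, rose by 2.04 ± 0.18 with ISO, by 2.24 ± 0.18 with SR-3420 and 1.52 ± 0.18 with Lipase Inh. + ISO, and Egr2, which acts beside Klf4, by 3.36 ± 0.18 with SR-3420. Zfp516, a factor of brown fat, rose by 2.08 ± 0.07 with ISO and 1.91 ± 0.07 with Lipase Inh. + ISO. Klf15 and Stat5a fell with ISO, by 1.16 ± 0.11 and 1.18 ± 0.07, and with SR-3420, by 1.31 ± 0.11 and 0.69 ± 0.07.

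Of 24 factors that hold adipogenesis back, all tested, 7 rose and 7 fell with ISO, 9 rose and 5 fell with SR-3420, 6 rose and 7 fell with Lipase Inh. + ISO and 3 rose and none fell with Lipase Inh. + SR-3420. Zfp521, an antagonist of Ebf1 and Zfp423, fell by 1.27 ± 0.22 with ISO and by 1.55 ± 0.20 with Lipase Inh. + ISO. Id2, an inhibitor of helix-loop-helix factors, fell by 0.84 ± 0.18 under ISO and by 1.13 ± 0.18 under SR-3420, and rose by 1.04 ± 0.17 with Lipase Inh. + ISO. Irf4 rose by 1.76 ± 0.15 with ISO and fell by 0.99 ± 0.15 with SR-3420. Bhlhe40, a helix-loop-helix repressor, rose in all 4 comparisons, by 1.24, 1.13, 0.96 and 0.45.

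Of the TCF/LEF and Wnt pathway genes, 12 were tested of a list of 16. With ISO 4 rose and 1 fell, with SR-3420 7 rose and none fell, with Lipase Inh. + ISO 2 rose and 5 fell, and with Lipase Inh. + SR-3420 2 rose and none fell. Axin2, a common target of TCF factors, fell by 1.79 ± 0.33 with Lipase Inh. + ISO. In that comparison Tcf7l1 also fell (-0.50 ± 0.09) and Lrp6 rose (0.59 ± 0.10). Myc, another target of TCF factors, rose by 0.34 ± 0.08 under ISO, by 0.97 ± 0.08 under SR-3420 and by 0.46 ± 0.08 with Lipase Inh. + SR-3420, and fell by 0.70 ± 0.08 with Lipase Inh. + ISO. The part of the lower Tcf7l2 in the lower Axin2 and Myc was not tested.

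Genes of mature adipocytes, taken as targets of PPARγ or C/EBPα, were the last list, of which 21 were tested of 22. With ISO 10 rose and 4 fell, with SR-3420 10 rose and 6 fell, with Lipase Inh. + ISO 10 rose and 4 fell, and with Lipase Inh. + SR-3420 6 rose and 1 fell. Pck1, a gene of glyceroneogenesis, rose by 4.18 ± 0.19, 3.10 ± 0.19, 1.76 ± 0.18 and 1.27 ± 0.18 in these comparisons, and Acsl1, an acyl-CoA synthetase, by 2.00, 1.43, 1.61 and 0.67. With SR-3420, Retn (-0.81 ± 0.13), Cfd (-0.76 ± 0.11) and Adipoq (-0.52 ± 0.08), which encode secreted adipokines, fell, and Lipe rose by 0.77 ± 0.07. The part of the lower Pparg in these changes was not tested. Adipoq differed by -0.08 ± 0.08 with ISO and by 0.03 ± 0.08 with Lipase Inh. + SR-3420, and its interaction with the inhibitors was 0.55 ± 0.11 for SR-3420 (adjusted p = 0.000922).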

How the data were processed

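RNA-seq libraries (TruSeq) of 18 samples in 6 groups of 3 were analysed. The authors aligned reads with STAR 2.4.2a to mm9, used HOMER to keep 1 read per position and length, and counted reads per gene with iRNA-seq; the deposited values are raw counts per gene, 1 column a sample and 0 columns of other samples. The strand setting of the counting is not given in the sources used here. From the deposited counts, edgeR 4.0.16 (R 4.3.3) was run with TMM factors, its default filter (minimum count 10, minimum total 15) and the quasi-likelihood test, fitting 1 mean per group over all 18 samples with 9 contrasts and Benjamini-Hochberg adjustment over 12156 genes. CPM use the TMM-scaled library sizes, intervals are 95%, and the SE is the log2 fold change divided by the square root of F. P-values measure the spread between these samples only, and library totals limit precision as given in the report.

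The authors used DESeq2, run here (1.42.0) as an alternative. Other alternatives were RLE factors, total counts alone, no filter, only the groups compared, thinning to the smallest library, leaving out Lars2, a replicate block, 1 count added to ratios, and each sample left out. In data simulated for ISO against Vehicle (12138 genes tested), 200 of 200 genes changed 3-fold were called, and 7 unchanged genes passed at an adjusted p of at most 0.05. Changes smaller than 3-fold, such as those of most members, were not simulated. Named genes were the 9 members in every comparison, in each list and stimulus comparison the 3 genes each way that passed with the greatest changes, Ddit3 and Atf4, and the 3 most similar genes per member; not all that the rule allows are printed, and repeated values of a named gene in other comparisons are. The members and lists were chosen with earlier results of these data known. Promoter sequence was read from the mm9 genome at the table's positions.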

Additional observations from a re-analysis of the deposited data

Results flagged for a closer look

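The response to ISO differed between cells with and without lipase inhibitors for 6 of the 9 members by a test of the difference itself (log2 response with inhibitors minus response without, edgeR, adjusted over all genes): Cebpb -0.72, Cebpd 0.74, Cebpg -0.74, Ebf1 -1.49, Zfp423 -2.07 and Tcf7l2 -0.34. The response to SR-3420 differed in the same way for 4 members: Cebpa -0.37, Cebpb -0.89, Cebpg -0.46 and Pparg 0.76. The adjusted p-values and the fits in which Tcf7l2 and Cebpa did not pass stand with the interactions above, and the cause of these differences was not tested.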

How the results depend on the processing

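Gata2 had 12 to 55 counts a library, and 1 library (Lipase Inh. + SR-3420 replicate 2) was shallow. RLE factors and leaving out Lars2 changed no member's call or sign. The cause of the changes below was not tested unless the setting itself removes samples or genes. Total counts alone moved the median gene by -0.31 (ISO), -0.16 (SR-3420), -0.23 (Lipase Inh. + ISO), -0.10 (Lipase Inh. + SR-3420) and changed the counts over the fixed lists: with ISO 21 rose and 36 fell (35 and 20 in the report's fit), with Lipase Inh. + ISO 15 rose (24) and with Lipase Inh. + SR-3420 8 rose (17), while 0 members passed in the last. Signs turned under it for Cebpa (Lipase Inh. + SR-3420 -0.018; ISO against SR-3420 -0.0063), Cebpd (SR-3420 -0.069), Ebf1 (ISO -0.26), Tcf7l2 (SR-3420 -0.12; Lipase Inh. + SR-3420 -0.017), Gata2 (ISO -0.028; Lipase Inh. + ISO -0.18) and, for Lipase Inh. + ISO against Lipase Inh. + SR-3420, Cebpb (-0.074) and Pparg (-0.049).

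In libraries thinned to the smallest total, signs turned for Ebf1 with inhibitors alone (-0.029), Gata2 with Lipase Inh. + ISO (-0.25) and the SR-3420 interactions of Cebpd (-0.028), Tcf7l2 (-0.053) and Gata2 (0.23), and Tcf7l2 with ISO lost its call (adjusted p = 0.107). With no filter, Pparg with Lipase Inh. + ISO was 0.0032. For inhibitors alone, 1 member (Cebpd) passed with no filter, in DESeq2 and under the replicate block, and 0 to 1 when each sample was left out.

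Leaving out 1 sample at a time, 3 to 6 members passed with ISO (3 without Vehicle replicate 2 or ISO replicate 2), 3 to 5 for ISO against SR-3420, and 11 to 15 list genes rose with Lipase Inh. + SR-3420. The log2 ratio of Cebpd to Cebpa with Lipase Inh. + SR-3420 ran from -0.17 to 0.18, positive without Lipase Inh. + SR-3420 replicate 2 or Lipase Inh. + Vehicle replicate 3. Values that had not passed also changed sign, over these ranges: Cebpd with ISO -0.085 to 0.091, Gata2 with ISO -0.0081 to 0.45, Tcf7l2 with SR-3420 -0.027 to 0.086, inhibitors alone Ebf1 -0.050 to 0.10, Gata2 -0.39 to 0.14 and Zfp423 -0.13 to 0.051, with Lipase Inh. + ISO Pparg -0.014 to 0.0052 and Gata2 -0.15 to 0.38, with Lipase Inh. + SR-3420 Gata2 -0.057 to 0.48, the ISO interaction of Gata2 -0.43 to 0.10, the SR-3420 interactions of Cebpd -0.057 to 0.19 and Ebf1 -0.15 to 0.010, and Lipase Inh. + ISO against Lipase Inh. + SR-3420 Cebpb -0.14 to 0.16 and Gata2 -0.24 to 0.042.

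The labels do not tie a replicate number to a shared experiment, and 28 of 45 same-numbered pairs of samples had deviations from their group means correlated above 0.1 (mean 0.110), and 12 of 18 samples correlated best with their own number. With the replicate number as a block, Pparg with ISO (-0.16, adjusted p = 0.0496), Zfp423 with SR-3420 (0.23, adjusted p = 0.0487) and Cebpd with inhibitors alone (-0.49, adjusted p = 0.0378) passed, 1 member then passing for inhibitors alone, and no member's other call changed.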
